A study of Homo sapiens with 12 samples.

Results

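The genes described here are 8 G protein-coupled receptors for incretin hormones, glucagon and nutrients: GPR119, GLP1R, GIPR, GCGR, FFAR1, FFAR2, FFAR4 and GPBAR1. They were taken by gene symbol, and all 8 were found among the 60624 genes in the tables of each experiment. The 12 bulk RNA-seq libraries came from islet-like cells grown from expandable pancreatic progenitors of MEL1, a human embryonic stem cell line. The libraries formed 4 groups of 3, a knockout (KO) of the transcription factor gene NKX2-2 with its wild type (WT), and a KO of CLEC16A, a gene of mitophagy and endosomal traffic, with a WT of its own. All 4 groups shared 1 culture history: progenitors expanded on feeder cells in EF6I medium, which held EGF, bFGF, compound 616452 and I-BET151, and were then collected on day 8 in R6 medium. R6 held forskolin at 10 µM, a direct activator of adenylyl cyclase, together with vitamin C, Compound E, LDN-193189, T3, 616452, heparin, zinc sulfate, BSA and B27. Forskolin was therefore present in WT and KO cells alike. The labels name 1 cell line and no edited clone, so an effect of the line that was edited and an effect of the knockout cannot be told apart. Whether replicates were separate cultures is not said either, so the spread behind each p-value is that of the libraries and may be a technical one.

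These receptors couple what is absorbed from a meal to hormone release. GLP1R, GIPR and GCGR bind the peptide hormones GLP-1, GIP and glucagon. GPR119 responds to fatty acid amides and monoacylglycerols, and GPBAR1 to bile acids, and all of these receptors raise cyclic AMP through the stimulatory G protein. FFAR1 and FFAR4 bind long-chain fatty acids and FFAR2 binds short-chain ones. In the islet, cyclic AMP and the phospholipase C pathway used by FFAR1 strengthen glucose-stimulated secretion from beta cells, while FFAR4 is known from delta cells as well as from adipocytes and gut endocrine cells.

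The NKX2-2 libraries held 16157481 to 20649976 counts each and the CLEC16A libraries 31364272 to 33763795. The deposited TPM (transcript abundance scaled for transcript length and library) of the listed genes covered 41.4% to 47.2% of the total that TPM is scaled to in NKX2-2 libraries, and 99.7% to 99.8% of it in CLEC16A libraries, so TPM levels were compared between genes within an experiment and not between experiments. Transcripts of the targeted genes gave no check of the KO labels. NKX2-2 stood at 91.9, 68.0 and 68.3 CPM (counts scaled to the TMM-adjusted library size, not for gene length) in the libraries labelled NKX2-2 KO, against 95.4, 96.6 and 93.4 in their WT, a difference that did not pass the test (log2 fold change -0.32, SE 0.12, edgeR adjusted p = 0.0610). It passed under 8 of 16 alternatives, with log2 fold changes from -0.76 to -0.25 and adjusted p from 0.00192 to 0.235 over all 16, and leaving out KO replicate 1 was the 1 left-out library that made it pass (-0.50, 0.00230). By TPM the NKX2-2 level was 34.6 ± 8.76 in KO and 57.4 ± 3.17 in WT (SD, n = 3). The NKX2-2 transcript was also lower in the CLEC16A KO libraries, at 63.5 ± 3.96 CPM against 121 ± 8.98 in their WT. That difference passed the test (-0.93, SE 0.072, edgeR adjusted p = 3.53e-10). CLEC16A stood at 36.7 ± 1.34 CPM (SD, n = 3) in the libraries labelled CLEC16A KO and at 32.3 ± 3.35 in their WT (0.18, SE 0.087, edgeR adjusted p = 0.0949; 0.27 and 0.0335 without WT replicate 1). Islet hormones were present in every group, with means of INS between 183 and 647 CPM, of GCG between 61.0 and 1920 CPM and of SST between 24.1 and 112 CPM. Hepatocyte, intestinal and mesenchymal markers were present too, as given beside the results.

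The promoters of the 3 members with the largest fold changes, GPR119, FFAR1 and FFAR4, are shown here because their transcripts went to near absence or came up from it in NKX2-2 KO libraries. Each is the 250 bases before the RefSeq transcription start (GRCh38.p14), written 5′ to 3′ on the strand of the gene. GPR119 is at chrX:130385675-130385924 (minus strand), FFAR1 at chr19:35347652-35347901 (plus) and FFAR4 at chr10:93566415-93566664 (plus). Capitals mark matches, on either strand, to any of 5 motifs: the cyclic AMP response element TGACGTCA, its shorter form TGACG (contained in the full element), the NKX2-2 core TNAAGTG, the E-box CANNTG and GTTAAT, a part of the HNF1 site.
GPR119: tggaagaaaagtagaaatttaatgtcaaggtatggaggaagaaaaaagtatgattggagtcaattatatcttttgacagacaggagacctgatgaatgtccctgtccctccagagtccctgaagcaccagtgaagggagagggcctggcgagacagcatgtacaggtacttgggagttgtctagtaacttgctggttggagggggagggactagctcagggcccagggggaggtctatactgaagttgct
FFAR1: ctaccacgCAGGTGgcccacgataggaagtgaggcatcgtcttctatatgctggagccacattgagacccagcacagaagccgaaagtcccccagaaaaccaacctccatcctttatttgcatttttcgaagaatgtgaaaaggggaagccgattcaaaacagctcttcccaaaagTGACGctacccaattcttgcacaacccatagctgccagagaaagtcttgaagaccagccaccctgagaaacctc
FFAR4: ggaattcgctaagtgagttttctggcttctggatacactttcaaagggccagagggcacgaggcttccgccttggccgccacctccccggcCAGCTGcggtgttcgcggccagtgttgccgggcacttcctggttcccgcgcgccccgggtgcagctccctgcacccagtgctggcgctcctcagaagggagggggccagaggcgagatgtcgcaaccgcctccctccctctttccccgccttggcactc
In FFAR1 the capitals are an E-box 242 to 237 bases before the start and a TGACG motif 74 to 70 bases before it, and in FFAR4 an E-box 159 to 154 bases before the start. The GPR119 window held none of the 5. For GPR119 and FFAR1 the RefSeq start lies upstream of the gene model of GENCODE 29, which gives the gene positions below. All 8 genes were matched in the RefSeq table, with 9 promoters, since GPBAR1 has a second start. Among these 9, TGACG was found in 1, the E-box in 5 and GTTAAT in 1 (the second start of GPBAR1), and TGACGTCA and TNAAGTG in 0. Over all 35116 promoters of the same length the shares were 21.2% for TGACG, 61.8% for the E-box, 6.23% for GTTAAT, 1.65% for TGACGTCA and 8.73% for TNAAGTG. The GC content was 48.4% for GPR119, 49.6% for FFAR1 and 66.4% for FFAR4, against a median of 58.0% for all promoters. A match is a run of letters and not a shown binding site.

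In WT cells of both experiments the short-chain fatty acid receptor FFAR2 and the bile acid receptor GPBAR1 had the highest TPM levels of the 8, and FFAR4 the lowest. The NKX2-2 WT order by mean TPM was GPBAR1 (27.5 ± 2.77, SD, n = 3), FFAR2 (25.9 ± 1.65), GPR119 (13.5 ± 1.26), GLP1R (5.13 ± 0.697), FFAR1 (4.87 ± 0.254), GIPR (4.24 ± 0.237), GCGR (2.09 ± 0.102) and FFAR4 (0.0531 ± 0.0145). GPBAR1 and FFAR2 overlapped between libraries, as did GLP1R and FFAR1, and the other neighbours did not. In CLEC16A WT the order was FFAR2 (118.9 ± 7.51), GPBAR1 (78.8 ± 2.15), GIPR (31.0 ± 4.84), GPR119 (30.4 ± 3.19), GLP1R (24.2 ± 3.53), FFAR1 (16.2 ± 1.58), GCGR (11.2 ± 0.786) and FFAR4 (0.212 ± 0.188). There GIPR and GPR119 overlapped and the other neighbours did not. By mean CPM, FFAR2 (63.5) and GPBAR1 (56.5) also led in NKX2-2 WT, ahead of GLP1R (47.0). In CLEC16A WT, however, GLP1R had the highest CPM of the 8 (82.1, FFAR2 74.4, GPBAR1 57.2). In that experiment GLP1R had 115 counts per TPM and FFAR2 22.3, beside 3105 and 2149 exon bases in GENCODE 29. The order of these genes therefore depends on the length scaling of the deposited TPM.

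In NKX2-2 KO libraries the order by mean TPM was GPBAR1 (21.2 ± 1.39), FFAR2 (13.3 ± 0.104), GIPR (3.56 ± 1.15), GCGR (2.75 ± 1.19), GLP1R (1.17 ± 0.255), FFAR4 (0.704 ± 0.0844), FFAR1 (0.341 ± 0.0575) and GPR119 (0.182 ± 0.0133). GIPR and GCGR were the neighbours whose ranges overlapped. CLEC16A KO libraries gave FFAR2 (54.0 ± 13.5), GPBAR1 (32.3 ± 1.51), GPR119 (14.1 ± 1.60), GIPR (12.2 ± 3.06), GLP1R (11.0 ± 0.684), GCGR (9.33 ± 1.37), FFAR1 (5.88 ± 0.446) and FFAR4 (0.287 ± 0.272). From GPR119 down to GCGR each neighbour overlapped the next, while GPR119 was above GLP1R and GCGR in every library.

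The make-up of the set was not the same in the KO libraries. As a share of the summed TPM of the 8 genes, GPR119 made up 16.2% ± 1.87 in NKX2-2 WT and 0.423% ± 0.0315 in NKX2-2 KO, and GPBAR1 33.0% ± 2.21 and 49.1% ± 1.47, while FFAR2 stood at 31.1% ± 1.18 and 30.9% ± 2.51. GPR119 moved from the third place in NKX2-2 WT to the lowest in NKX2-2 KO, below FFAR4. In the CLEC16A experiment the shares of GPR119 were 9.76% ± 0.651 in WT and 10.3% ± 2.29 in KO, and those of FFAR2 38.2% ± 1.64 and 38.4% ± 5.61. The TPM of FFAR2 did not follow its CPM in CLEC16A KO replicates 1, 2 and 3, with 63.2, 38.5 and 60.3 TPM beside 45.2, 45.0 and 38.9 CPM. Its KO share rests on those TPM values, and a share by CPM was not computed. GCGR took a larger share in CLEC16A KO (6.73% ± 0.774) than in WT (3.59% ± 0.310), and FFAR1 a smaller one (4.24% ± 0.228 and 5.23% ± 0.655), both without overlap. The summed CPM of the 8 genes, however, was lower in both KO groups: 108 ± 7.50 against 229 ± 5.83 in the NKX2-2 experiment and 154 ± 7.48 against 299 ± 11.4 in the CLEC16A experiment.

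**Figure D1:**
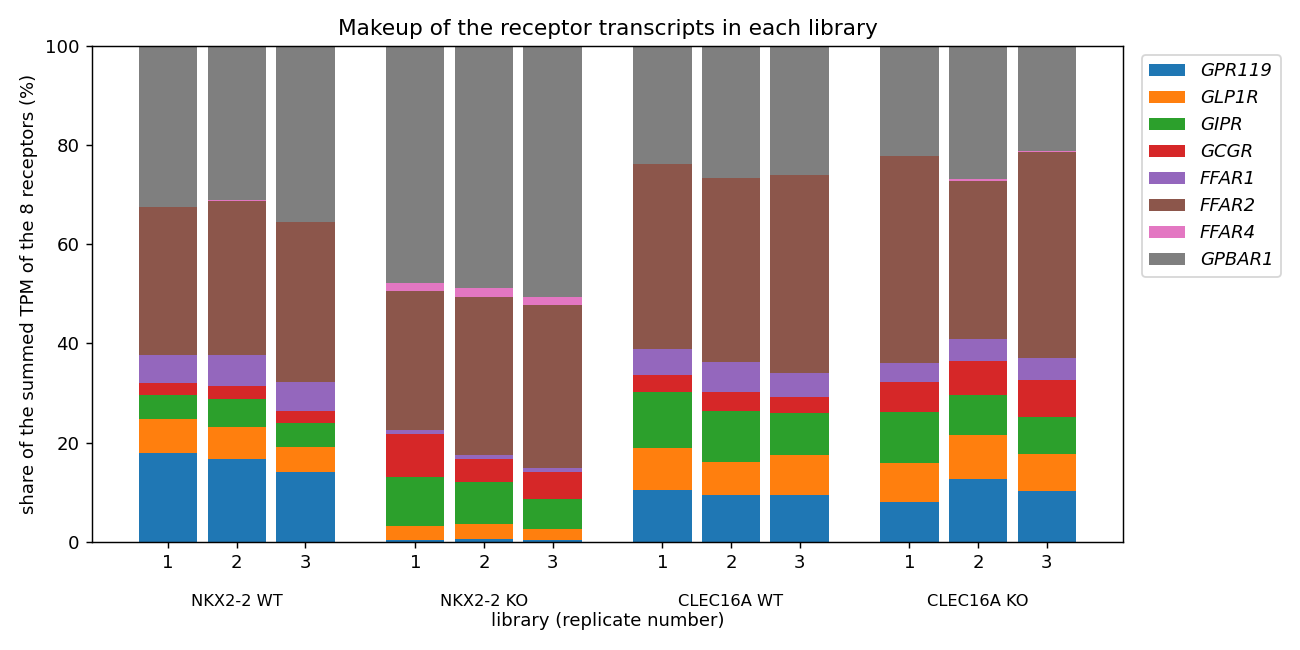
Share (percent) of the summed TPM of the 8 receptor genes taken by each gene, with 1 stacked bar per library and colours for the genes. GPR119 fills a mean of 16.2% of the NKX2-2 WT bars and 0.423% of the NKX2-2 KO bars, against 9.76% and 10.3% of the CLEC16A WT and KO bars.

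In NKX2-2 KO libraries 5 of the 8 receptors fell (GPR119, FFAR1, GLP1R, FFAR2 and GPBAR1), 1 rose (FFAR4) and 2 did not pass the test (GIPR and GCGR). All 8 passed the filter on low counts. Of the 17436 genes tested in that comparison 33.4% were called, 16.8% as lower and 16.6% as higher. The median log2 fold change of the 8 was -0.73, beside 0.033 for all genes. In CLEC16A KO libraries 6 receptors fell (FFAR1, GIPR, GPBAR1, GLP1R, GPR119 and FFAR2), 0 rose and 2 did not pass (GCGR and FFAR4). Of 19958 genes 45.0% were called there, 21.3% as lower and 23.7% as higher, and the median was -0.98 for the 8 and -0.011 for all genes. A change of at least 2-fold together with the test was met by 4 receptors that fell (GPR119, FFAR1, GLP1R and FFAR2) and 1 that rose (FFAR4) with NKX2-2 KO, where 5.53% of all genes fell and 7.28% rose by that rule. With CLEC16A KO it was met by 3 that fell (FFAR1, GIPR and GPBAR1) and 0 that rose, beside 5.16% and 8.74% of all genes.

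CPM ranges of KO and WT did not overlap for 6 receptors in the NKX2-2 experiment, 5 of them lower and 1 higher, and for 7 in the CLEC16A experiment, all of them lower. Of all genes tested 45.5% did not overlap in the NKX2-2 experiment (22.5% lower, 23.1% higher) and 53.8% in the CLEC16A experiment (26.4% lower, 27.4% higher). These are bulk samples, in which fewer cells of a type and less RNA per cell cannot be told apart.

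**Figure D2:**
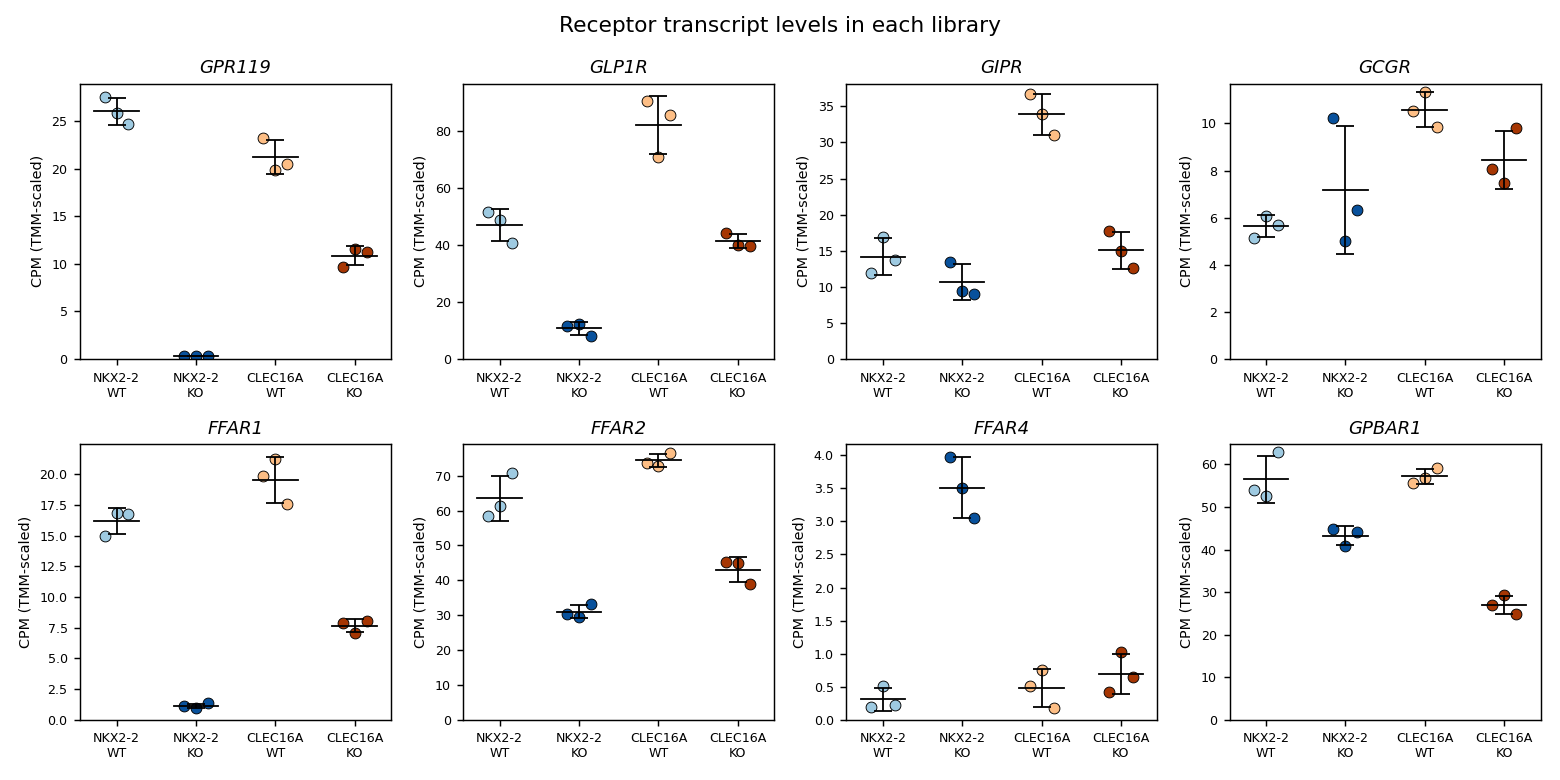
TMM-scaled CPM of each of the 8 receptor genes in the 12 libraries, with 1 panel per gene, an axis from 0, 1 point per library, a long line at each group mean and error bars of 1 SD. GPR119 lies between 0.300 and 0.361 CPM in the NKX2-2 KO libraries and between 24.7 and 27.6 in their WT, and FFAR4 is the 1 gene with NKX2-2 KO points above WT points without overlap.

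GLP1R, the receptor of GLP-1 (chromosome 6, 39048798 to 39087743, plus strand, GENCODE 29 on GRCh38, as for the genes below), held 51.6, 48.6 and 40.8 CPM in the NKX2-2 WT libraries and 11.7, 12.4 and 8.14 in the KO libraries. Every KO library was far below every WT library, and GLP1R fell 4.36-fold (log2 fold change -2.12, SE 0.16, edgeR adjusted p = 6.11e-07). In the CLEC16A experiment it held 90.2, 70.7 and 85.4 CPM in WT and 44.2, 40.1 and 39.6 in KO. The groups again did not overlap, and the fall was 1.99-fold (-0.99, SE 0.086, edgeR adjusted p = 2.27e-09).

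GIPR, the receptor of GIP (chromosome 19, 45668244 to 45683724, plus strand, with the microRNA genes MIR642A and MIR642B inside it), held 11.9, 16.9 and 13.7 CPM in NKX2-2 WT and 13.5, 9.35 and 9.00 in NKX2-2 KO. KO replicate 1 lay within the WT range and the other two below it. The difference did not pass (-0.42, SE 0.18, edgeR adjusted p = 0.0964), and it did pass without KO replicate 1 (-0.64, adjusted p = 0.0164), with no count filter (-0.46, 0.0214) and with a replicate block (-0.42, 0.0228). In the CLEC16A experiment GIPR held 36.7, 34.0 and 31.0 CPM in WT and 17.7, 14.9 and 12.6 in KO, with no overlap. GIPR fell 2.25-fold there (-1.17, SE 0.11, edgeR adjusted p = 1.27e-08).

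GCGR, the glucagon receptor, which is most abundant in liver (chromosome 17, 81804132 to 81814013, plus strand), did not pass the test in either experiment. It held 5.14, 6.07 and 5.70 CPM in NKX2-2 WT and 10.2, 5.00 and 6.35 in KO. The KO range enclosed the WT range, and KO replicate 1 was the highest of the 6 libraries (0.35, SE 0.24, edgeR adjusted p = 0.288; -0.011 and 0.968 without that library). CLEC16A WT libraries held 10.5, 11.3 and 9.87 CPM and KO libraries 8.08, 7.45 and 9.82. KO replicate 3 came close to the lowest WT library (-0.32, SE 0.14, edgeR adjusted p = 0.0688), and without it the lower level passed (-0.45, 0.0183), as it did with upper-quartile scaling (-0.40, 0.0253). Hepatocyte markers, as the summed level of 10 genes, were at 10094 to 12480 CPM in NKX2-2 KO and 9966 to 11580 in its WT, and at 16444 to 18100 in CLEC16A KO against 6432 to 6748 in its WT. Their part in the GCGR values was not tested.

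GPR119, the receptor of fatty acid amides (chromosome X, 130384440 to 130385447, minus strand, with 1 exon in the gene model), had the largest fall of the 8. It had 574, 511 and 438 counts in the NKX2-2 WT libraries, or 27.6, 25.8 and 24.7 CPM, and 6 counts in each NKX2-2 KO library, or 0.361, 0.300 and 0.346 CPM. The KO libraries sum to 18 counts, with an exact 95% Poisson interval of 10.7 to 28.4 that covers counting error only. GPR119 fell 76.5-fold (-6.26, SE 0.20, edgeR adjusted p = 9.66e-10). CLEC16A WT libraries held 23.3, 19.9 and 20.5 CPM and KO libraries 9.70, 11.6 and 11.3, again without overlap. That fall was 1.95-fold (-0.96, SE 0.12, edgeR adjusted p = 3.77e-07).

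GPBAR1, the bile acid receptor (chromosome 2, 218259496 to 218263859, plus strand), had 54.0, 52.7 and 62.8 CPM in NKX2-2 WT and 44.9, 40.8 and 44.1 in KO. All KO libraries were below all WT libraries, but the fall was small, 1.31-fold (-0.39, SE 0.11, edgeR adjusted p = 0.0179). It did not pass without KO replicate 2 (-0.35, adjusted p = 0.0906) or without WT replicate 3 (-0.30, 0.0594). In the CLEC16A experiment GPBAR1 had 55.6, 56.8 and 59.1 CPM in WT and 26.9, 29.2 and 24.8 in KO. The ranges were far apart, and GPBAR1 fell 2.12-fold (-1.08, SE 0.082, edgeR adjusted p = 2.21e-10).

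FFAR1, the long-chain fatty acid receptor of beta cells and some gut endocrine cells (chromosome 19, 35351552 to 35353862, plus strand), held 14.9, 16.8 and 16.8 CPM in NKX2-2 WT and 1.08, 0.950 and 1.33 in KO. No KO library came near a WT library, and FFAR1 fell 14.4-fold (-3.85, SE 0.19, edgeR adjusted p = 1.77e-08), the second largest fall of the 8 after GPR119. In CLEC16A WT it held 19.8, 21.2 and 17.6 CPM and in KO 7.89, 7.08 and 8.06. FFAR1 fell 2.55-fold there (-1.35, SE 0.12, edgeR adjusted p = 5.65e-09), more than any other of the 8 in point estimate.

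FFAR2, the short-chain fatty acid receptor (chromosome 19, 35443907 to 35451767, plus strand), held 58.5, 61.4 and 70.8 CPM in NKX2-2 WT and 30.5, 29.5 and 33.2 in KO. It fell 2.05-fold with no overlap (-1.03, SE 0.12, edgeR adjusted p = 1.60e-05). In the CLEC16A experiment it held 73.7, 72.8 and 76.6 CPM in WT and 45.2, 45.0 and 38.9 in KO. The groups were apart there too, and the fall was 1.73-fold (-0.79, SE 0.076, edgeR adjusted p = 1.17e-08). FFAR3, the other short-chain fatty acid receptor, lies on the same chromosome at 35358460 to 35360485 and was barely detected. It summed to 17 counts in NKX2-2 WT and 2 in KO, a ratio of 7.86 with a counting interval of 1.87 to 70.2, and was not tested there. Its lower CLEC16A KO value did not pass (-1.49, SE 0.67, edgeR adjusted p = 0.0758), and FFAR3 counts are uncertain because the near-identical gene GPR42 can share its reads.

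FFAR4, a long-chain fatty acid receptor, was the member that rose. It had 4, 10 and 4 counts in NKX2-2 WT and 66, 70 and 53 in KO, or 0.192, 0.505 and 0.226 CPM against 3.97, 3.50 and 3.06. The lowest KO library was well above the highest WT library, and FFAR4 rose 11.2-fold (3.48, SE 0.36, edgeR adjusted p = 8.06e-06). The log2 fold change was 0.69 by limma on log2(TPM + 1), a scale that understates changes of genes this low. In the CLEC16A experiment it had 18, 25 and 6 counts in WT and 13, 33 and 20 in KO, with overlapping groups (0.52, SE 0.52, edgeR adjusted p = 0.450), and its TPM was listed at 0 in WT replicate 3 and KO replicate 1.

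FFAR4 (chromosome 10, 93566665 to 93604480, plus strand) overlaps RBP4, a retinol-binding protein gene that islet delta cells also express, on the opposite strand. Their exons share 0 bases of the 4060 exon bases of FFAR4 and 1449 of RBP4, and the use of strand in counting is not given in the sources used here. RBP4 rose in both experiments, from 31.6 ± 3.36 to 149 ± 3.36 CPM with NKX2-2 KO (2.23, SE 0.11, edgeR adjusted p = 1.95e-08) and from 20.3 ± 2.45 to 39.8 ± 5.69 with CLEC16A KO (0.97, SE 0.11, edgeR adjusted p = 1.44e-07). Of 6 tested delta cell markers, RBP4 among them, 5 were higher and 1 lower in NKX2-2 KO, with a summed level of 565 to 570 CPM against 511 to 558 in WT. The 1 lower gene was PCSK1, the most abundant of them in WT (428 ± 26.6 CPM, and 25.9 ± 1.32 in KO). Beside it LEPR rose from 32.9 ± 4.09 to 255 ± 10.2 CPM and SST from 24.1 ± 5.86 to 112 ± 8.41. In CLEC16A KO 3 delta cell markers were higher and 3 lower. Of 6 adipocyte markers 4 were tested in each experiment, and 1 was higher and 1 lower in each. They summed to 14.1 to 16.2 CPM in NKX2-2 KO against 18.0 to 20.7 in WT, and to 53.9 to 62.5 in CLEC16A KO against 17.5 to 18.0 in WT, where CIDEC, a lipid droplet gene, rose from 4.63 ± 0.339 to 43.5 ± 4.83. The defining marker ADIPOQ was near 0 in all groups (0.113 ± 0.0624 CPM in NKX2-2 KO and 0.0509 ± 0.0483 in its WT), and LEP was at 0 counts in all NKX2-2 libraries. The part of RBP4 reads and of delta cell or adipocyte content in the FFAR4 value was not tested.

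The 2 knockout effects differed for 6 of the 8 receptors when the difference itself was tested as an interaction over all 12 libraries, where 38.2% of 20494 genes passed, 20.4% with a negative and 17.8% with a positive difference. Of the 6 receptors 3 had a negative and 3 a positive difference. Each knockout has its own experiment and WT, so the gene knocked out and the experiment cannot be told apart in these differences. NKX2-2 KO had the larger fall for GPR119 (difference of log2 fold changes, NKX2-2 minus CLEC16A, -5.29, SE 0.25, edgeR adjusted p = 2.07e-13), FFAR1 (-2.50, SE 0.23, 7.45e-09) and GLP1R (-1.12, SE 0.18, 3.66e-05). CLEC16A KO had the larger fall for GIPR (0.76, SE 0.23, 0.0107) and GPBAR1 (0.71, SE 0.14, 0.000286). FFAR4 differed by 2.98 (SE 0.67, 0.00113), with its rise in NKX2-2 KO. For FFAR2 the effects could not be separated (-0.24, SE 0.14, edgeR adjusted p = 0.195), and neither could those for GCGR (0.68, SE 0.28, 0.0598). The GCGR difference passed without NKX2-2 KO replicate 2 (0.89, 0.0122) or 3 (0.76, 0.0395), without CLEC16A KO replicate 3 (0.80, 0.0425), with upper-quartile scaling (0.80, 0.0262), with no count filter (0.67, 0.0343) and with a replicate block (0.65, 0.0474).

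**Figure D3:**
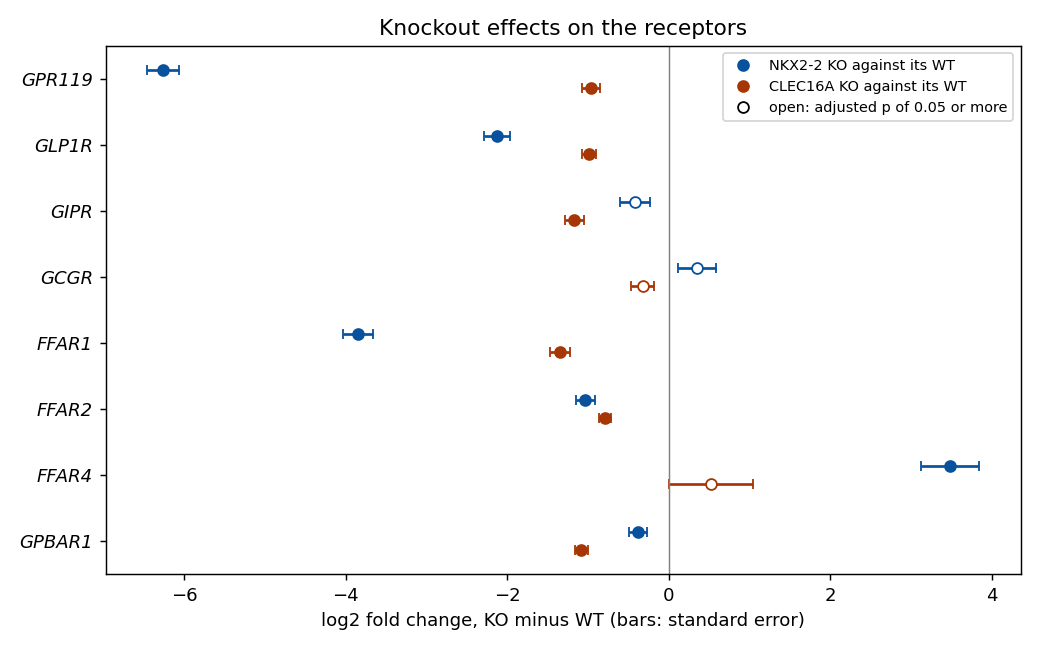
Log2 fold change, KO minus WT, of each of the 8 receptor genes in both experiments, with 1 SE as the error bar, open points for an adjusted p of 0.05 or more and the line at 0 for no difference. GPR119, FFAR1 and GLP1R lie further below 0 for NKX2-2 KO, GIPR and GPBAR1 for CLEC16A KO, and FFAR4 lies at 3.48 for NKX2-2 KO.

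The genes most like each receptor were named by the highest Pearson r of log2 CPM, centred within each experiment, over the 12 libraries and among 14777 genes. These libraries share 4 group means, which make up most of such a correlation, so r is given as a description. For GPR119 the first gene was PRKCH (r = 0.997), followed by GRIK3 and SYT13 (both 0.996), and for FFAR1 it was IRX1 (0.996), a transcription factor gene of alpha cells, followed by DDC and L3MBTL4 (both 0.995). GLP1R was most like RPS6KA6 (0.992), then ZBTB7C and NCS1 (both 0.991). FFAR2 was most like SMIM5 and CRYBA2 (both 0.994) and RAB26 (0.991), and GPBAR1 most like RTN2 (0.995), STMN3 (0.993) and PCBP4 (0.992). GIPR had PNMA3 (0.983), CPT1C (0.979) and RHPN1 (0.978), and FFAR4 had CCDC159 (0.969), P2RY1 (0.960) and COL6A4P2 (0.958). GCGR had the lowest values, with MHENCR (0.926), TTLL9 (0.912) and CENPT (0.903).

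Markers of cell types changed too, and not all in the direction of most receptors. Beside the counts here and in the lists below, 16.8% of all genes tested were lower and 16.6% higher with NKX2-2 KO. With CLEC16A KO 21.3% were lower and 23.7% higher. No list was tested against these shares. Of 8 tested markers shared by endocrine cells, 5 were lower and 1 higher in NKX2-2 KO, with a median of -1.27 and a summed level of 1356 to 1503 CPM against 3081 to 3172 in WT. In CLEC16A KO 7 were lower and 1 higher, with a median of -0.77 and a sum of 15167 to 17380 CPM against 26432 to 29354. The WT sums were thus far apart between the experiments (3081 to 3172 and 26432 to 29354 CPM), which was not tested. Enteroendocrine markers, whose cell types in the gut also use GPR119, FFAR1 and FFAR2, summed to 233 to 251 CPM in NKX2-2 KO against 1177 to 1241 in WT (7 lower and 2 higher of 11 tested), and to 1033 to 1096 in CLEC16A KO against 1681 to 1722 in WT (7 and 2 of 10).

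Alpha cell markers were lower for 7 of 10 in both comparisons, and beta cell markers for 6 of 8 with NKX2-2 KO and 7 of 9 with CLEC16A KO. All 9 mesenchymal markers were higher in NKX2-2 KO (5989 to 6653 CPM against 2381 to 2644), and 6 of 9 were lower in CLEC16A KO (49.7 to 56.6 against 157 to 169). The mesenchymal sums of the WT groups were far apart as well, with the higher one in NKX2-2 WT. All 8 intestinal epithelial markers were higher in CLEC16A KO (4578 to 5550 CPM against 877 to 924), and in NKX2-2 KO 5 were lower and 1 higher (1411 to 1584 against 1817 to 1999). Endothelial markers were higher for 4 and lower for 1 of 5 in NKX2-2 KO, and higher for 1 and lower for 2 of 4 in CLEC16A KO. Duct or progenitor markers were lower for 3 of 5 in NKX2-2 KO and higher for 5 of 5 in CLEC16A KO. The part of these cell types in the receptor values was not tested.

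The genes of the hormones that these receptors bind fell as well. GCG, which encodes both glucagon and GLP-1, fell from 1312 ± 142 to 61.0 ± 13.3 CPM with NKX2-2 KO (-4.43, SE 0.17, edgeR adjusted p = 4.02e-09) and from 1920 ± 44.7 to 264 ± 1.74 with CLEC16A KO (-2.86, SE 0.063, edgeR adjusted p = 4.46e-19). GIP, the hormone of GIPR, had 475, 464 and 514 counts in NKX2-2 WT and 1, 12 and 4 in KO, and fell 78.3-fold (-6.29, SE 0.31, edgeR adjusted p = 2.00e-08). Without KO replicate 2, which had 12 of these counts, the log2 fold change was -7.35. With CLEC16A KO it fell 3.91-fold (-1.97, SE 0.15, edgeR adjusted p = 1.51e-10). Of the 8 ligand and processing genes listed, 4 fell and 2 rose with NKX2-2 KO (median -0.57), and 6 fell and 1 rose with CLEC16A KO (median -0.50). PCSK1, the protease that frees GLP-1 from proglucagon, fell by 4.05 on the log2 scale with NKX2-2 KO, and DPP4, the protease that inactivates GLP-1 and GIP, rose by 1.64 with CLEC16A KO.

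Related receptors went both ways. For the counts of this and the following lists, 33.4% of all genes tested were called with NKX2-2 KO and 45.0% with CLEC16A KO. Among the other receptors of the glucagon and secretin family, 2 fell and 1 rose of 7 tested with NKX2-2 KO (median -0.14), and 1 fell and 2 rose of 8 with CLEC16A KO (median 0.046). The calcitonin receptor CALCR fell by 3.26 with NKX2-2 KO (-3.92 without KO replicate 2), CRHR2 fell by 0.90 (adjusted p = 0.0310, between 0.0364 and 0.113 when 1 library was left out), and the VIP receptor VIPR1 rose by 2.56 with CLEC16A KO. Among other nutrient and metabolite receptors, 8 fell and 5 rose of 19 with NKX2-2 KO (median -0.18), and 7 fell and 8 rose of 20 with CLEC16A KO (median 0.27). With NKX2-2 KO the calcium-sensing receptor CASR fell by 4.60 and the lactate receptor HCAR1 by 3.90, while the fatty acid transporter CD36 rose by 2.25. The nuclear bile acid receptor NR1H4 rose by 2.48 with CLEC16A KO, where GPBAR1 fell.

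The list of islet receptors that lower cyclic AMP also held INSR, the insulin receptor, which does not act in that way and is counted apart here. The coupling of the other receptors, GALR2 among them, was not measured, so the name of the list is a broad one. With NKX2-2 KO 5 of the other 11 tested fell and 0 rose, led by the adrenergic receptor ADRA2A (-3.45) and the somatostatin receptor SSTR1 (-2.63). With CLEC16A KO 8 of the other 11 fell and 0 rose, among those that fell the prostaglandin receptor PTGER3 (-2.74), SSTR2 (-1.20) and ADRA2A (-0.86). INSR fell by 0.56 with NKX2-2 KO and rose by 0.79 with CLEC16A KO, and with it the list medians of 12 were -0.56 and -0.84. Of 14 G protein genes, 7 fell and 2 rose in each comparison (medians -0.29 and -0.16). GNAZ, an inhibitory alpha subunit, fell by 0.98 with NKX2-2 KO, and GNAO1 fell by 0.77 with CLEC16A KO.

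Downstream of the receptors, 5 adenylyl cyclase genes fell and 1 rose of 8 with NKX2-2 KO (median -0.58), ADCY2 (-0.60) among them, while with CLEC16A KO 4 fell and 5 rose of 10 (median 0.0033). Of the phosphodiesterases that break down cyclic AMP, 4 fell and 4 rose of 15 with NKX2-2 KO (median 0.15), PDE1C (1.86) among those that rose, and 9 fell and 3 rose of 16 with CLEC16A KO (median -0.29), PDE11A (-1.21) among those that fell. For the cyclic AMP effectors the counts were 2 down and 6 up of 21 (median 0.018) and 7 down and 5 up of 21 (median -0.10). The protein kinase A subunit PRKAR2B rose in both, by 1.23 and 0.76, and RAPGEF4, which encodes the cyclic AMP sensor EPAC2, rose by 0.72 with NKX2-2 KO.

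In the phospholipase C branch, 6 genes fell and 3 rose of 14 with NKX2-2 KO (median -0.26), and 5 fell and 7 rose of 15 with CLEC16A KO (median 0.15). ITPR3, a calcium release channel, fell by 3.02 with NKX2-2 KO and rose by 1.23 with CLEC16A KO. Genes of receptor desensitisation gave 5 down and 2 up of 15 (median 0.013) and 6 down and 6 up of 15 (median -0.0051), RGS16 (-1.91) among those that fell with NKX2-2 KO. Transcripts known to be induced by cyclic AMP gave 7 down and 2 up of 12 (median -0.64) and 4 down and 5 up of 13 (median -0.061). FOS, an early response gene, fell by 1.95 with NKX2-2 KO and rose by 1.74 with CLEC16A KO, and SST, which is both a delta cell hormone and a cyclic AMP target, rose by 2.21 and fell by 0.73.

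**Figure D4:**
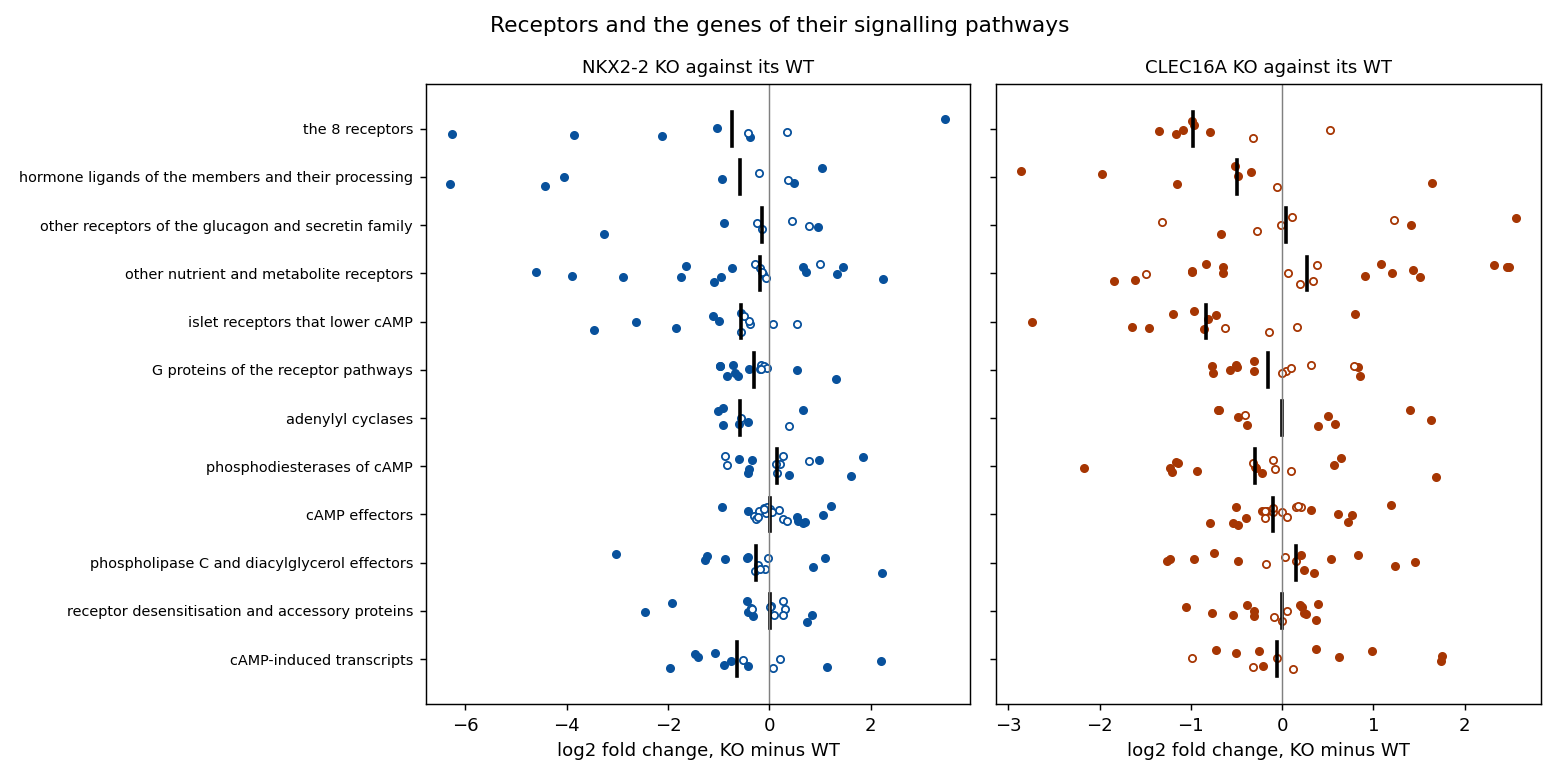
Log2 fold change, KO minus WT, of the 8 receptors and of every tested gene of the 11 pathway lists, with 1 point per gene (open for an adjusted p of 0.05 or more), a black bar at the median of each list and 1 panel per experiment, whose axes differ in range. The list of receptors that lower cyclic AMP, INSR included, has a median of -0.56 with NKX2-2 KO and -0.84 with CLEC16A KO, and the cyclic AMP effectors have medians of 0.018 and -0.10.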

How the data were processed

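Bulk RNA-seq had been made from 12 libraries in 4 groups of 3, grouped by the sample titles. For each experiment the authors deposited a table of raw counts per gene and a table of TPM. The tools named, per the submitters' processing notes, are StringTie 2.1.7, HISAT2 2.2.1 and fastp 0.22.0, with the build hg38. How reads were counted, on which annotation release and with which strand setting is not given in the sources used here. Library totals are in the report, and they set the precision of low genes such as FFAR4. The Y copies of pseudoautosomal genes (45 entries of the NKX2-2 tables) were not used.

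Each KO was compared with its own WT on the deposited counts of all genes with edgeR 4.0.16 in R 4.3.3 (TMM scaling, filterByExpr, robust quasi-likelihood F test, Benjamini-Hochberg adjustment over all genes tested, threshold 0.05). The difference of effects was an interaction over all 12 libraries. CPM use TMM-scaled library sizes. Standard errors (SE) were derived from the F statistic and the log2 fold change. The fits were tested on simulated data. Named genes are the 8 receptors, NKX2-2, CLEC16A, GCG, GIP, FFAR3, up to 3 genes per pathway list with the smallest p in a comparison, and the 3 genes most like each receptor (a mean of at least 1 CPM in some group, prior count 2). RBP4 and the cell type markers were named beside them, RBP4 after its overlap with FFAR4 was found. The members and lists were chosen with earlier results of these data known. Alternatives were upper-quartile and RLE scaling, DESeq2 1.42.0, no count filter or a mean of at least 20 counts, a replicate block, 1 fit of all libraries, limma 3.58.1 on log2(TPM + 1) or log2(TPM + 0.1) and leaving out each library. Gene positions are from GENCODE 29 and promoters from RefSeq. Counting intervals are exact at 95% and cover counting error only. Replicates of every group differed by more than sampling noise.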

Additional observations from a re-analysis of the deposited data

Results flagged for a closer look

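For 6 receptors the effects of the 2 knockouts differed by an interaction test over all 12 libraries (edgeR, Benjamini-Hochberg), given as the NKX2-2 effect minus the CLEC16A effect on the log2 scale. The difference was -5.29 for GPR119 (adjusted p = 2.07e-13), -2.50 for FFAR1 (7.45e-09) and -1.12 for GLP1R (3.66e-05), which fell in both experiments. It was 0.76 for GIPR (0.0107), which passed the test with CLEC16A KO and not with NKX2-2 KO, and 0.71 for GPBAR1 (0.000286), which fell in both. For FFAR4, which rose with NKX2-2 KO and did not pass with CLEC16A KO, the difference was 2.98 (0.00113). Over the 17 alternatives run, adjusted p stayed under 0.05 for each of these 6, with the highest value at 0.0485 for GIPR. The gene knocked out and the experiment, with a WT of its own, cannot be told apart in these differences.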

How the results depend on the processing

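Over the alternatives run, GPR119, GLP1R, FFAR1, FFAR2 and FFAR4 kept direction and call with NKX2-2 KO, and GPR119, GLP1R, GIPR, FFAR1, FFAR2 and GPBAR1 with CLEC16A KO. With NKX2-2 KO, GIPR gave -0.46 with no count filter and -0.42 with the replicate block, and -0.64 to -0.29 when 1 library was left out. GCGR gave -0.011 to 0.55 and GPBAR1 -0.45 to -0.30 without 1 library, and GPBAR1 -0.36 by limma without a filter (adjusted p = 0.0840). The CLEC16A transcript gave -0.069 to 0.14 in that experiment, below 0 without KO replicate 1 (-0.054) or WT replicate 3 (-0.069). With CLEC16A KO, GCGR gave -0.40 with upper-quartile scaling and -0.45 to -0.24 without 1 library. The GCGR difference of effects was 0.80 with upper-quartile scaling, 0.67 with no count filter, 0.65 with the replicate block and 0.33 to 0.89 without 1 library. FFAR4 had no CLEC16A value with a mean of at least 20 counts.

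The genes called over the whole table were 2888 higher and 2936 lower with NKX2-2 KO, and 1624 and 1623 by limma on log2(TPM + 1) with no filter. With CLEC16A KO 4732 were higher, and 3051, 3020 and 2841 by limma on log2(TPM + 1), on log2(TPM + 0.1) and with no filter. Of the calls with CLEC16A KO 52.7% were higher, against 43.2% with upper-quartile scaling and 40.5% by limma on log2(TPM + 1). In that experiment log2(TPM + 0.1) moved the median of all genes from -0.011 to -0.13. Of the calls with NKX2-2 KO 49.6% were higher, against 58.4% with upper-quartile scaling. From TPM in place of CPM, the KO level as a percent of WT was 1324 for FFAR4 with NKX2-2 KO, and with CLEC16A KO 45.6 for GLP1R, 36.2 for FFAR1, 45.4 for FFAR2 and 41.0 for GPBAR1. Replicate numbers are shared between KO and WT. In the NKX2-2 experiment the deviations of same-numbered libraries correlated by 0.109, 0.0254 and 0.321. Those of differently numbered libraries ran from -0.243 to 0.176 there. In the CLEC16A experiment same-numbered libraries correlated by 0.0115, 0.0108 and -0.0302, so no pairing was seen. For the NKX2-2 experiment these values do not settle whether same-numbered libraries belong together. The replicate block gave 4077 higher and 3960 lower genes with NKX2-2 KO and 4626 and 4137 with CLEC16A KO. Among the pathway genes, 4 of 31 named with NKX2-2 KO and 4 of 31 with CLEC16A KO lost their call under some alternative.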
